A study of Mus musculus with 6 samples.

Results

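The array carried 16194 probes that are named by a genomic interval of the mouse build mm9 and not by a transcript, out of 55681 probes that are no controls. They were taken by that name alone, without regard to their signal, and they cover 3543 intervals on 20 chromosomes. The interval names end in F or R, which is read here as the orientation of the probe. The files do not define these letters, so the reading was not checked. Probes with the same interval and the same letter form an interval strand, and there were 4610 of these (2318 with F, 2289 with R and 3 without a letter). An interval strand held 1 to 10 probes, with a median of 3, and interval lengths ran from 62 to 7128487 bp, with a median of 7304 bp. Each interval probe was a single spot. That the intervals are intergenic and noncoding was not checked against an mm9 annotation, and the intervals are given by position only.

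Long intergenic noncoding RNAs are transcripts made outside the bounds of protein-coding genes. Most are spliced and polyadenylated like messenger RNA, are held at lower levels than messenger RNA and are restricted to fewer cell types. Some act in chromatin regulation, in nuclear bodies or in the response to DNA damage, and for many intervals of such maps no function is known. The array design sets several probes on an interval, in many cases for both orientations.

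RNA was measured in cells sorted from the skin of male mice, selected by a high keratin 15 EGFP reporter, high integrin alpha 6 and no Sca1. By the labels these are stem cells of the hair follicle together with the hair germ, the cells from which a resting follicle starts a new hair. All mice were depilated. One group of 3 received acetone, the vehicle, on the skin and the other group of 3 received 7,12-dimethylbenz[a]anthracene (DMBA), a polycyclic hydrocarbon that forms DNA adducts and is used to start skin tumours, and the cells were taken at 3 days. The mice of each group were different animals with 1 array each, the array has 1 colour, and strain and age are not given in the sources used here. The comparison asked which transcripts of these cells differ after DMBA.

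The values are log2 processed intensities minus the log2 of the 75th percentile of each array, so 0 stands for the 75th percentile of the array. The 75th percentile intensity ran from 1355 to 2274 over the 6 arrays. Vehicle 1 lay on a slide of its own. Across 12969 interval probes, Pearson's r was 0.886 to 0.903 within a group and 0.888 to 0.901 between the groups. Of the marker genes of hair follicle stem cells and hair germ, 12 of 12 were well above background on every array. The same held for 8 of 8 markers of the upper follicle, interfollicular epidermis and sebaceous gland, 7 of 8 of melanocytes, 7 of 7 of leukocytes, 4 of 6 of fibroblasts, 4 of 6 of endothelium and muscle and 2 of 3 of blood. The fibroblast marker Pdgfra was well above background on no array. The summed log2 level of the leukocyte markers ran from 6.51 to 6.78 in vehicle and from 6.44 to 7.13 after DMBA. That of the melanocyte markers ran from 1.56 to 2.16 and from 2.05 to 2.76. The part of these other cell types in the interval signals was not tested. In bulk RNA, fewer cells of a type and less RNA per cell cannot be told apart.

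Most interval probes gave signal in these cells. A probe was kept when the scanner software flagged it as well above background on 3 or more arrays of either group, and 12969 of the 16194 interval probes (80.1%) were kept. The share was 83.6% among 26732 probes of RefSeq coding transcripts and 67.4% among 1559 probes of RefSeq noncoding transcripts. On all 6 arrays, 9589 interval probes (59.2%) were well above background, and on no array 1536 (9.48%). At least 1 probe was kept in 4372 of the 4610 interval strands (94.8%), and every probe was kept in 2592 (56.2%). Detection on an array says that a spot was brighter than its background, and not that the named interval is the source of the signal. The kept interval probes had a median level of -2.77, with the middle range from -4.24 to -0.99, and those of coding transcripts a median of -0.91.

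Detection was lower on 2 of the DMBA arrays. The share of interval probes well above background was 83.2%, 81.8% and 74.9% on vehicle 1 to 3 and 80.0%, 65.4% and 70.8% on DMBA 1 to 3. DMBA 2 and DMBA 3 lay below every vehicle array, and DMBA 1 lay among them. The group means were 80.0% ± 4.45 (SD, n = 3) and 72.0% ± 7.38 (SD, n = 3), a difference of -7.95 points. An exact two-sided permutation test gave p = 0.2, where the smallest p that 3 against 3 arrays allow is 0.1. The coding probes showed the same order, with 83.9% ± 2.77 and 78.9% ± 4.51 and an exact p of 0.2. The dimmest signal that was still called well above background differed between arrays as well, at -6.58, -6.64 and -6.82 on vehicle 1 to 3 and -6.55, -5.03 and -5.91 on DMBA 1 to 3. A probe on DMBA 2 therefore had to be brighter to count as detected. In all, 93 interval probes were detected on all 3 vehicle arrays and on no DMBA array, against 6 the other way. Of all probes, 83.6%, 82.6% and 77.0% were well above background on vehicle 1 to 3, and 80.9%, 69.3% and 73.4% on DMBA 1 to 3. The same count over all probes is not given here, so 93 and 6 are not read as a trait of interval probes.

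**Figure D1:**
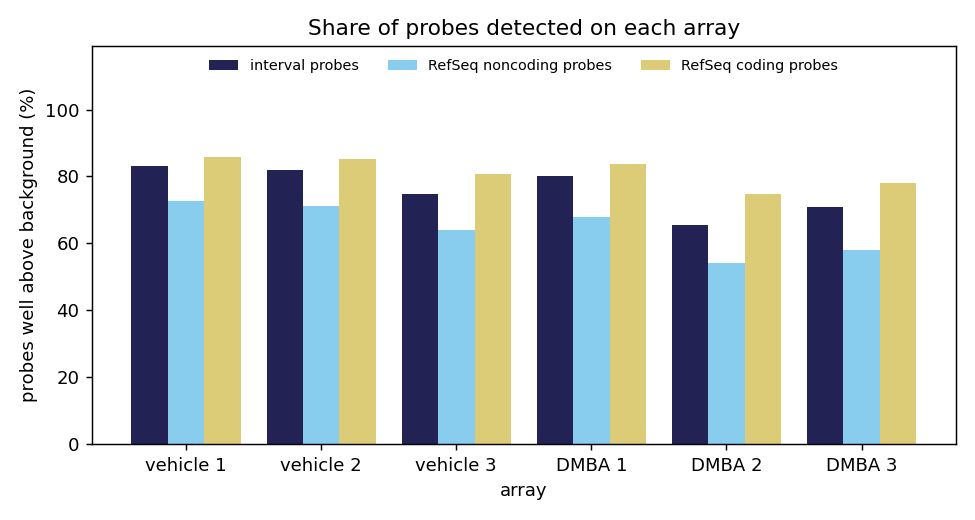
Percent of probes well above background (vertical axis) on each of the 6 arrays (horizontal axis), as bars from 0 for interval probes, RefSeq noncoding probes and RefSeq coding probes, with no error because each bar is 1 array. Interval probes lie between the other two classes on every array, and DMBA 2 has the lowest share in each class, 65.4% for interval probes.

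Both letters of an interval were usually detected. Of 1067 intervals probed with F and with R, 1017 (95.3%, exact binomial 95% interval 93.9% to 96.5%) had a kept probe of each, 23 of F only, 15 of R only and 12 of neither. With detection on all 6 arrays required of a probe, the share was 87.2%. No interval with at least 2 probes of each letter had all probes of one letter detected on all 6 arrays and none of the other on any. In 14 intervals every probe of one letter and no probe of the other was kept. The intervals with the most probes among these 14, chosen after their values were seen, were chr6:28161665-28189840 with 9 F probes kept and its 1 R probe not, and chr7:69024136-69131056 with 5 F probes kept and none of 4 R probes. The labels say that cDNA was labelled with Cy3 by Exo-Klenow and do not say whether the strand of the RNA is kept, so the letters are not read as the strand of a transcript here.

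Probes of the shortest intervals were detected least often. With intervals ordered by length in 4 groups, 71.2% of the probes of intervals from 62 to 785 bp were kept, 78.9% from 788 to 7304 bp, 83.1% from 7327 to 21801 bp and 81.5% of longer ones. By chromosome, the share kept ran from 71.9% on X to 85.8% on 17.

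In 118 intervals every probe of both letters, at least 2 of each, was well above background on all 6 arrays. Those with the most probes were chr8:119732348-119749198, chr11:95627874-95640824 and chr5:137392195-137426421. In the chr8 interval, the differences of its 10 F and 10 R probes between DMBA and vehicle ran from -0.60 to 1.11 and no probe separated the groups. In the chr11 interval, 2 of 10 F probes and 0 of 9 R probes were lower after DMBA on every array. In the chr5 interval, 4 of 10 R probes and 2 of 9 F probes were higher after DMBA on every array, with mean differences of 0.81 and 0.53.

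No interval probe passed the test between DMBA and vehicle. By limma with Benjamini-Hochberg adjustment over all 44950 kept probes, 0 interval probes were called higher and 0 lower, and the smallest adjusted p was 0.114. The background is 0% in each direction, since no probe of the array was called. At an unadjusted p under 0.05, 384 interval probes (2.96%) were higher and 257 (1.98%) lower, against 2.69% and 2.22% of all kept probes. Groups that do not overlap, with all 3 DMBA arrays on one side of all 3 vehicle arrays, were found for 639 interval probes higher (4.93%) and 420 lower (3.24%), against 4.78% and 4.25% of all kept probes. The tested interval probes include the 93 detected on all vehicle arrays and no DMBA array, and the 6 the other way. Those were kept only through 1 group. With detection required on all 6 arrays, 3.65% were higher and 1.67% lower at that p, against 3.24% and 2.13% of all probes so kept. The shares of interval probes lay near the background in each direction. The lower share at that p was under the background with all arrays, but it was 2.21% without vehicle 2, 2.15% without vehicle 3 and 4.17% without DMBA 1, against 2.21%, 2.10% and 4.03% of all kept probes. Without DMBA 1 the counts were 452 interval probes higher (3.49%, against 2.93% of all kept probes) and 541 lower, so the excess of higher over lower turned without that array, for interval probes and for all kept probes alike.

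The middle of the distribution hardly moved. The median difference of interval probes was 0.03 on the log2 scale, against 0.01 for all kept probes and -0.01 for coding probes. The difference was above 0 in 53.6% of interval probes. Without DMBA 1 the median was -0.083. The median level of the kept interval probes was -2.65, -2.73 and -2.75 on vehicle 1 to 3 and -2.56, -2.69 and -2.67 on DMBA 1 to 3. The groups overlapped, and their difference of 0.08 had an exact permutation p of 0.3 with 3 arrays per group.

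Interval probes are dimmer than coding probes, so both were set side by side within 3 equal groups of all kept probes by mean signal. Among the dimmest, 2.88% of interval probes were higher and 2.58% lower at an unadjusted p under 0.05 by limma, against 3.03% and 3.41% of coding probes. In the middle group the shares were 3.63% and 1.83%, against 3.61% and 3.06%. Among the brightest they were 1.83% and 0.894%, against 1.84% and 1.83%. The higher shares of both classes were alike in each group, and the lower share of interval probes was the smaller one in each. The difference between the classes was not tested.

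**Figure D2:**
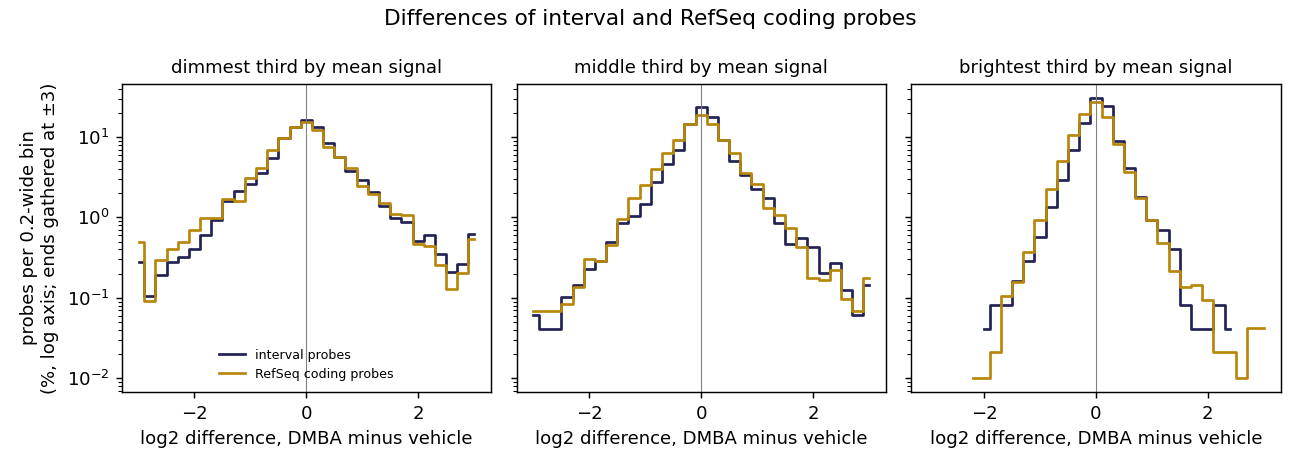
Distribution of the log2 difference, DMBA minus vehicle (horizontal axis), of interval probes and RefSeq coding probes, as percent of probes per bin on a log axis, for the dimmest, middle and brightest probes by mean signal, with differences beyond the ends gathered in the last bins. The curves of both classes lie close together and are narrower for brighter probes.

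An interval is better supported where several probes show one pattern, so the interval strands were searched for those with at least 2 kept probes that all separate the groups the same way. Of 3334 interval strands with at least 2 kept probes, 16 had every kept probe higher after DMBA and 8 every kept probe lower, while 753 had any probe that separates the groups. Single probes separate the groups in 4.78% of cases upward and 4.25% downward over the whole array. Those shares are of single probes and are no background for sets of probes. The same count over transcripts with several probes is not given here, so 16 and 8 are not read as many or few. These sets were chosen by that separation, so their differences are a description. The 8 of each direction with the most probes are labelled A to H for higher and I to P for lower.

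Interval A, chr1:135956616-135957485 (870 bp, R), had 3 probes, of which 1 was well above background on no vehicle array. The mean level of the 3 was -5.26, -5.46 and -5.47 on vehicle 1 to 3 and -1.81, -3.14 and -1.21 on DMBA 1 to 3. Every DMBA array lay above every vehicle array, and DMBA 2 was the lowest of the DMBA arrays. The 2 probes detected on all arrays were 5.65-fold and 6.77-fold higher, with log2 differences of 2.50 ± 0.47 and 2.76 ± 0.55 (SE) and limma adjusted p-values of 0.577 and 0.608. The third was kept only through the DMBA arrays, so no test is given for it, and it was higher by at least 11.2-fold. In such a bound each vehicle array enters at its own lowest detected signal, or at the signal of the probe if that was brighter.

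Intervals B, chr9:27155685-27156100 (416 bp, F), and E, chr9:27153416-27153677 (262 bp, F), lie 2008 bp apart, and a further interval, chr9:27148989-27155714, overlaps both. The mean level of the 3 probes of B was -4.01, -3.33 and -3.79 in vehicle and -1.53, 0.12 and -1.50 after DMBA, a 6.69-fold higher mean. That of E was -2.02, -1.84 and -1.75 in vehicle and -0.94, -0.50 and -1.17 after DMBA, a 2.00-fold higher mean. In B and in E the groups did not overlap and DMBA 2 was the highest array. In the overlapping interval 3 of 5 F probes and 2 of 5 R probes were higher on every DMBA array, and all 10 differences were above 0, from 0.70 to 3.86. The F probe at 3.86 and another F probe were well above background on only 2 of the 3 vehicle arrays. Their differences, 3.86 among them, are therefore no measured sizes. The probes of B and E all separated the groups because B and E were chosen so. Of this stretch of chromosome 9, only the overlapping interval was not chosen by separation. The arrays were not ordered alike: DMBA 2 was highest for the 5 F probes of the overlapping interval, and DMBA 1 was highest for its 5 R probes.

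Interval F, chr12:21380896-21387071 (6176 bp, R), was near the floor of the vehicle arrays. The mean of its 2 kept probes was -6.44, -7.69 and -7.84 on vehicle 1 to 3 and -3.69, -1.55 and -3.89 on DMBA 1 to 3. Neither probe was well above background on a vehicle array, both were kept only through the DMBA arrays, and the bounds were at least 10.1-fold and at least 14.3-fold. DMBA 2 was the highest array. Of the 3 kept F probes of the same interval, 2 also separated the groups, with differences of 3.87 and 3.77, and the third differed by 0.47 ± 0.77 (SE). Only 1 of these 3 was well above background on all 6 arrays, so at least 1 of 3.87 and 3.77 is no measured size. The other 2 R probes and 2 F probes were not kept. An interval within it, chr12:21381390-21381723 (F), had 0 of 3 probes higher and 1 lower on every DMBA array.

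Intervals C, D, G and H showed smaller differences. Interval C, chr12:3199327-3200827 (F), lay at -0.03, 0.16 and -0.09 in vehicle and 0.62, 0.70 and 0.56 after DMBA, a 1.53-fold higher mean. The interval around C, chr12:3173375-3203075, had 0 of 5 R probes that separate the groups. Interval D, chr19:5798135-5800557 (R), was bright, at 2.92, 2.91 and 3.18 against 3.48, 3.22 and 3.28, a 1.25-fold higher mean. In D the lowest DMBA array lay just above the highest vehicle array, and none of its 3 probes passed an unadjusted p of 0.05. Around D, 0 of 10 F probes and 0 of 2 R probes of chr19:5771425-5848475 separated the groups. Interval G, chr6:35201798-35217831 (F), was 2.53-fold higher, and 2 of its 7 R probes were also higher on every DMBA array while the other 5 differed by -0.08 to 0.22. Interval H, chr2:32960372-32986870 (R), was 2.09-fold higher. The interval chr2:32950586-32984936, which overlaps H, had 3 of 4 kept F probes and 2 of 5 kept R probes higher on every DMBA array.

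**Figure D3:**
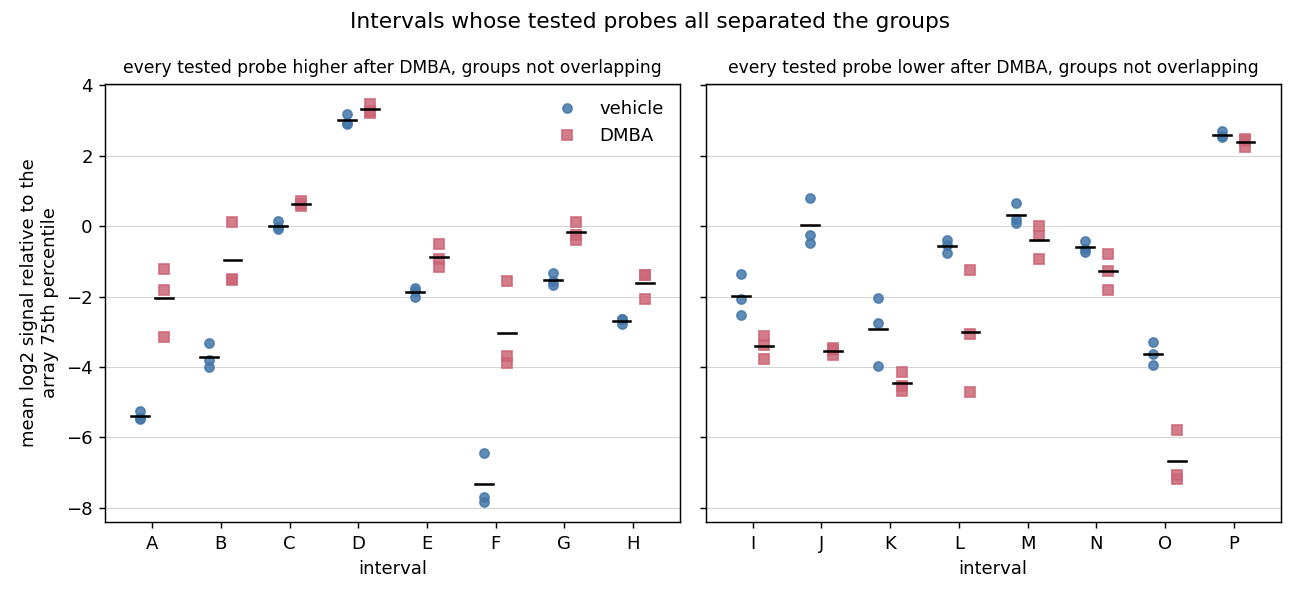
Mean log2 signal relative to the array 75th percentile (vertical axis) of the kept probes of intervals A to H, higher after DMBA, and I to P, lower after DMBA (horizontal axis), with 1 point per array and a black line at the group mean. Points of the groups do not overlap because the intervals were chosen so. A, F, K and O each hold at least 1 probe well above background on no array of one group, so their gaps are no measured size. The same holds for J and L, where 1 probe was not well above background on every array. The gaps are narrow in D and P.

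Among the lower intervals, J, chr7:137669440-137672712 (3273 bp, F), stood out. The mean of its 3 probes was -0.25, -0.48 and 0.79 on vehicle 1 to 3 and -3.65, -3.51 and -3.46 on DMBA 1 to 3. The DMBA arrays lay close together and far below every vehicle array, and the mean was 11.8-fold lower. Its probes differed by -2.84 ± 0.41, -6.28 ± 0.39 and -1.56 ± 0.56 (SE), and the second had the smallest unadjusted p of the array, 2.82e-06, with a limma adjusted p of 0.114. That probe was well above background on all vehicle arrays and on 1 DMBA array. Its difference of -6.28 and the 11.8-fold mean, which includes it, are therefore no measured sizes. A second interval, chr7:137669441-137675722, starts 1 bp further on and reaches beyond the end of J, and 0 of its 3 F probes and 0 of its 4 R probes separated the groups, with differences from -0.41 to 0.60. Where each probe lies within its interval was not analysed here.

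Interval L, chr1:139795171-139796306 (1136 bp, F), lies inside chr1:139713316-139913366. Its mean was -0.77, -0.40 and -0.54 in vehicle and -1.24, -4.72 and -3.05 after DMBA, a 5.41-fold lower mean. The spread after DMBA was wide (SD 1.74, n = 3), with DMBA 1 close to the vehicle arrays and DMBA 2 far below. Of its 3 probes, 2 were well above background on all 6 arrays, so the 5.41-fold mean is no measured size. In the surrounding interval 5 of 7 kept R probes were lower on every DMBA array. Of these, 3 differed by -3.43, -2.72 and -1.47, and 2 that were detected on no DMBA array were lower by at least 3.76-fold and 2.75-fold. The probes at -3.43 and -2.72 were well above background on 2 of the 3 DMBA arrays. In the same interval 1 of 4 kept F probes was higher by 2.25 ± 1.05 (SE).

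Interval O, chr2:150072436-150074859 (F), was dim after DMBA. Its 2 kept probes had a mean of -3.29, -3.94 and -3.64 in vehicle and -7.07, -7.18 and -5.78 after DMBA, and 1 of them, detected on no DMBA array, was lower by at least 6.57-fold. The probes of the longer interval around it, chr2:150008075-150101675, differed by 0.15 and 0.08. Interval I, chr14:105508625-105513462 (R), lay at -1.35, -2.06 and -2.53 in vehicle and -3.78, -3.36 and -3.11 after DMBA, a 2.71-fold lower mean. Its 3 probes differed by -1.61 to -1.15, while 0 of 5 F probes and 0 of 8 R probes of chr14:105497388-105511063, which overlaps I, separated the groups, with mean differences of -0.80 and 0.12.

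The other lower intervals had smaller gaps. Interval K, chr15:62090565-62091770 (F), had 2 probes detected on all arrays, 1.91-fold and 1.73-fold lower, and 1 detected on no DMBA array, lower by at least 2.93-fold. Of the 3 vehicle arrays, vehicle 1 lay closest to the DMBA arrays, with a mean of -3.96 next to -4.13 on DMBA 1. In chr15:61984389-62102500, around K, 1 of 10 R probes was lower on every DMBA array and 1 of 6 kept F probes was higher, by 2.62. Intervals M, chr1:183832694-183834125 (R), and N, chr9:88338621-88338923 (F), were 1.63-fold and 1.61-fold lower. Around N, 0 of 5 F probes and 0 of 3 R probes of chr9:88333945-88342370 separated the groups, with mean differences of -0.39 and 0.17. Around M, chr1:183783306-183834531 had 3 of 10 F probes lower on every DMBA array and 0 of 3 kept R probes. Interval P, chr1:35034564-35047457 (F), was bright and 1.16-fold lower, and both of its R probes differed by -0.07 and -0.17.

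Some of the smallest p-values belonged to single probes of long intervals. In chr16:59557120-59602070 (44951 bp), here Q, 1 F probe lay at -4.81, -5.05 and -4.86 on the vehicle arrays and at -1.65, -1.96 and -1.48 on the DMBA arrays. One R probe lay at -6.00, -5.59 and -6.56 and at -1.94, -1.98 and -2.08. They were higher by 3.21 ± 0.24 and 4.05 ± 0.30 (SE), each with a limma adjusted p of 0.114. The other 17 kept probes of Q differed by -0.09 to 0.72, and 2 of them separated the groups. Around Q, 0 of 3 R probes of chr16:59556175-59603176 separated the groups, with differences from -0.61 to -0.22. The R probe of Q with the difference of 4.05 passed the threshold with another background correction, normexp, at an adjusted p of 0.0411 by limma and a difference of 2.57. So did the probe of J with the largest difference, at 0.0411 and -4.62. No interval probe was called with the other scalings, filters, blocks, covariate or left-out arrays that were run.

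Further single probes of small p are given beside the other probes of their intervals. A probe of chr14:70483555-70484159 (F) was at -5.63, -4.81 and -5.65 in vehicle and -1.66, -2.36 and -1.43 after DMBA, a difference of 3.55 ± 0.37 (SE), while the 2 further probes of that interval differed by 0.61 and 1.22. In chr12:111824094-111838478 an F probe lay at -1.76, -0.51 and -1.72 in vehicle and -5.21, -7.01 and -6.21 after DMBA, a difference of -4.82. That F probe was well above background on all vehicle arrays and on 1 DMBA array, so -4.82 is no measured size. The other 3 kept F probes of that interval differed by -1.41 to -0.34. A probe of chr11:70196232-70203307 (R) differed by -1.72 ± 0.23 (SE) with the other 4 R probes between -1.64 and -0.32. The 3 kept F probes of that interval differed by -0.02 to 1.64. In chr19:23068397-23190256 (R) a probe was well above background on no DMBA array and was lower by at least 3.53-fold. Of the 6 kept R probes there, 4 differed downward and 2 upward, by up to 0.37, and the 2 kept F probes differed by 0.26 and 0.33. One probe of chr6:31017987-31174287 (R) differed by 2.01 ± 0.27 (SE), beside 4 further R probes from 0.21 to 2.79.

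**Figure D4:**
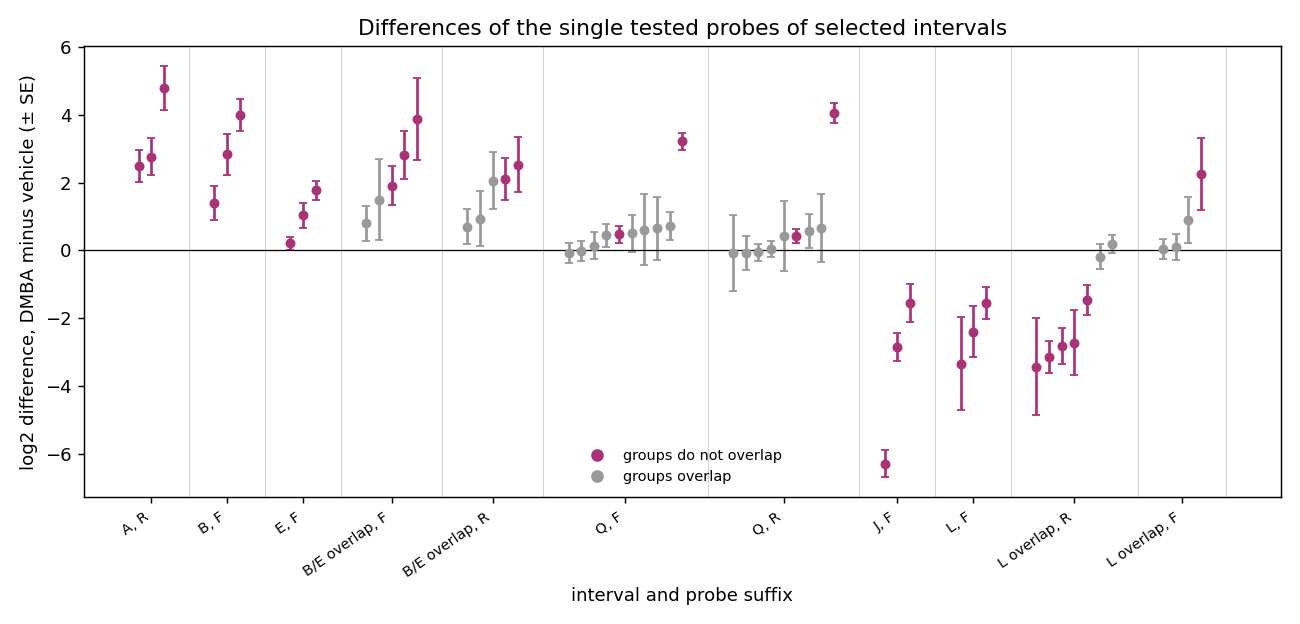
Log2 difference, DMBA minus vehicle, with its standard error (vertical axis) of each kept probe of intervals A, B, E, J, L and Q and of the intervals that overlap B and E or L, by the letter of the probe (horizontal axis), coloured by whether the groups overlap; 1 probe of A and 2 R probes of the interval around L were not detected in one group and are drawn at their fitted difference, which is no measured size. All 16 probes of B, E and their overlapping interval lie above 0, where B and E were chosen for probes that separate the groups upward. The lowest probe of J, detected on 1 DMBA array only, is also drawn at its fitted difference. So are other probes not detected on all 6 arrays. Among them are an F probe around L at 2.25 and an F probe at 3.86 in the interval that overlaps B and E. In Q 1 F and 1 R probe stand apart from the rest at 3.21 and 4.05.

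Among the 6 interval probes detected on all 3 DMBA arrays and on no vehicle array, the largest bounds were those of F, of A and of chr2:112030834-112031446 (F), which was higher by at least 9.88-fold. Its level was -6.93, -7.20 and -6.95 in vehicle and -5.37, -2.12 and -2.64 after DMBA. The 2 F probes of chr2:112014068-112049540, which overlaps it, differed by -0.28 and 0.34. Of the 93 probes detected the other way, the largest bounds after that of O were at least 4.65-fold in chr11:87872568-87880978 (F), at least 4.15-fold in chr5:54295266-54307541 (R) and at least 3.94-fold in chr13:75921214-75923024 (F). The other kept F probe differed by 0.04 in the chr11 interval and by 0.01 in the chr13 interval. Of the 4 R probes of the chr11 interval 0 separated the groups, with differences from -1.37 to 0.30. In the chr5 interval an F probe was also detected in vehicle only, with a bound of at least 3.50-fold, while the further F and R probes differed by -0.12 and 0.12. The counts of 93 and 6 go with the lower detection on DMBA 2 and DMBA 3, and the part of that in the counts was not tested. No count over all probes is set beside them.

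In 20 of the 3334 interval strands with at least 2 kept probes, kept probes separated the groups in opposite directions. The same count over transcripts with several probes is not given here, so 20 is not read as many or few. In chr5:100845342-100869667 (R) 1 probe was lower by -2.32 ± 0.55 and another higher by 1.96 ± 0.46 (SE). In chr2:174088550-174109425 (F) the pair differed by -1.65 and 1.66, and in chr2:72818943-72826893 (R) by -0.84 and 2.21.

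Probes of one interval agreed weakly. Over 20472 pairs of kept probes with the same interval and letter, the differences between DMBA and vehicle had the same sign in 60.3%, with Pearson's r of 0.31 across pairs. For 18035 pairs of one interval with opposite letters it was 55.7% and r of 0.16. For 5305 pairs of probes of one coding transcript it was 60.8% and r of 0.25. All pairs share the same 6 arrays, probes enter several pairs, and these values are a description. Where both probes of a pair separated the groups, 294 of 320 pairs (91.9%) with the same letter went the same way, 199 of 260 (76.5%) with opposite letters and 105 of 114 (92.1%) of coding transcripts. Pairs from different intervals of under 100 kb that overlap each other had the same sign in 53.4% with the same letter and 53.8% with opposite letters.

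**Figure D5:**
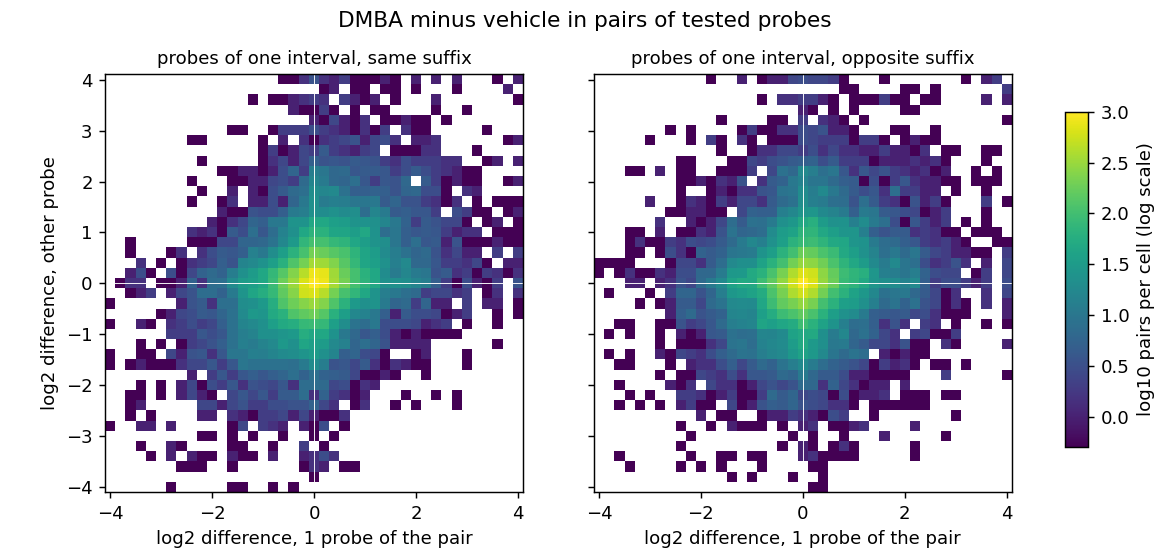
Log2 difference, DMBA minus vehicle, of 1 probe against that of another kept probe of the same interval, for pairs with the same letter and pairs with opposite letters; colour gives the log10 number of pairs per cell, and differences beyond 4 are gathered at the edges. Pairs gather around 0 in both panels and stretch along the diagonal more with the same letter, where r was 0.31, than with opposite letters, where it was 0.16.

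Long noncoding RNA genes with a symbol were read beside the intervals, from a list of 59. Of these 35 were on the array and 31 had kept probes, 43 in all. By limma 0 of the 43 probes were called, with 2 higher and 1 lower at an unadjusted p under 0.05, where 2.69% and 2.22% of all kept probes were. The median difference was 0.10, against 0.01 for all kept probes. Neat1, which builds nuclear paraspeckles, lay at 0.83, 0.30 and 0.62 in vehicle and -0.70, -0.32 and 0.21 after DMBA. All 3 DMBA arrays were below all vehicle arrays, with a difference of -0.86 ± 0.32 (SE) and a limma adjusted p of 0.987. A probe of Lncpint, a long noncoding RNA induced by p53, lay at -3.17, -2.48 and -3.50 in vehicle and -1.30, -2.57 and -0.93 after DMBA. The groups overlapped through DMBA 2, and the difference was 1.45 ± 0.51 (SE), beside 1.22 ± 0.82 (SE) for its other probe. Snhg17, a host gene of small nucleolar RNAs, differed by 0.61 ± 0.23 and a probe of Firre, a nuclear RNA from the X chromosome, by 0.66 ± 0.28 (SE), with groups that do not overlap. The other probe of Firre differed by 0.14. Snhg18 differed by -1.42 ± 0.65 (SE) with overlapping groups. The 2 probes of Kcnq1ot1, an imprinted antisense RNA, differed by -1.89 ± 0.86 and 2.14 ± 1.31 (SE), in opposite directions.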

How the data were processed

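Total RNA of 6 samples was read on 1-colour Agilent arrays. Per the file headers and the submitters' processing notes, Agilent Feature Extraction 10.7.1.1 gave background-corrected spot intensity on a linear scale and the flags for background, saturation and outliers, and the header names the build mm9. The deposited matrix of the series holds the same intensity divided by the 75th percentile of each array (column medians 0.162, 0.154, 0.154, 0.172, 0.159 and 0.160; r of 0.99989 to 0.99996 with the scanner values on the log2 scale) and served as an alternative. The 3671 control spots were left out, 45 flagged values were treated as missing, 0 spots were saturated, and spots of a probe were averaged. All 44950 kept probes were fitted with limma 3.58.1 in R 4.3.3 (lmFit and eBayes, two-sided, no covariates), with version 1.17.8 of the data.table package, and adjusted with the Benjamini-Hochberg method. The limma fit was tested on simulated data: a limit on false calls set for a single draw was exceeded and was replaced by a share pooled over repeated draws, in which slightly more of its calls were false than the nominal share. RefSeq probes were named through GRCm38.p6, for names only. The planned normexp alternative used median spot signal, because the mean signal is not among the columns used here.

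The members, marker lists and long noncoding RNA list were chosen with earlier results of these data known. Named were up to 8 interval strands per direction with at least 2 kept probes that all separate the groups; up to 6 probes per direction of smallest p whose groups do not overlap; up to 3 interval strands with probes in opposite directions; up to 3 intervals detected throughout; up to 4 probes per direction detected in 1 group only; up to 6 intervals detected in 1 orientation only, of which there were 0; and up to 6 listed genes. Overlapping intervals were then looked up within 10000 bp. Replicate numbers did not pair the samples: deviations of same-numbered arrays correlated with r of 0.04, 0.01 and 0.01. Precision is limited by 3 arrays per group, and intervals on shares cover counting error only.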

Additional observations from a re-analysis of the deposited data

How the results depend on the processing

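With normexp, 1 interval probe was called higher and 1 lower (named in the report), 267 were lower with groups that do not overlap, and 3.75% were higher and 1.39% lower at an unadjusted p under 0.05 (all probes 3.38% and 1.94%). Without the filter on dim probes, 953 were higher at that p (5.88%, with 1.78% lower; all probes 6.12% and 1.89%) and 1366 higher without overlap. With detection required on all arrays, 160 were lower at that p (1.67%, against 2.13% of all probes) and 62.7% of pairs had the same sign. With the percent above background of each array as a covariate, 661 were higher at that p (5.10%, with 2.04% lower; all probes 4.36% and 2.53%) and the median difference was 0.215, where the median of all probes moved to 0.161. Means over interval strands, of which there were 4372, gave 116 higher and 67 lower at that p, and 214 and 123 without overlap. At that p the shares were 2.65% and 1.53%, against 2.67% and 2.18% of all means formed in this way over the array. Both letters were detected in 87.2% of intervals with all arrays required and in 97.7% with 1. With the replicate number as a block, the replicate block fit called 0 and changed no call. It gave 440 higher and 274 lower at that p (3.39% and 2.11%, against 2.91% and 2.33% of all probes). Leaving out 1 array gave 0 calls, 332 to 457 higher and 244 to 541 lower at that p, 1081 to 1480 higher and 750 to 2035 lower without overlap (fewer arrays separate more easily), a median difference from -0.083 (without DMBA 1) to 0.089, and a same-sign share of 60.4% to 62.0%. At the ends of these ranges at that p, the higher share was 2.56% without vehicle 2 and 3.52% without DMBA 2, against 2.46% and 3.01% of all probes. The lower share was 1.88% without DMBA 3 and 4.17% without DMBA 1, against 2.17% and 4.03% of all probes. The difference in detected share ran from -11.9 to -4.6 points, and that in median level from 0.035 to 0.107. The median difference, 0.033 with the main settings, was 0.009 with quantile normalization, 0.083 with normexp and 0.065 with the slide as a block, and the difference in median level, 0.076 with the main settings, was 0.011 with quantile normalization. The causes were not tested. No share over all probes is given here for the counts without overlap, so those counts are not read as a trait of interval probes. The comparison of overlapping intervals was chosen after seeing the data. The other counts of interval probes stayed within 1.5 times of the main ones, and the differences of named probes kept their sign, which their choice by separation favours.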

Other observations

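In 603 intervals with at least 3 kept probes of each letter, the pairs of probes with the nearest values on the 3 vehicle arrays were read on the DMBA arrays, which had no part in the pairing, in a comparison chosen after seeing the data. Deviations of the DMBA arrays from their mean correlated with r of 0.43 over 1332 pairs of opposite letters and 0.51 over 1678 pairs of the same letter. The pairs share the arrays, and the values are a description. In Q the large differences were those of 1 F and 1 R probe, and the other probes that separated the groups there, again 1 F and 1 R, differed by 0.47 and 0.42.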
